A study of Mus musculus with 83 samples.

Results

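The mitochondrial ribosomal proteins are the protein part of the ribosome inside mitochondria. The genes described here are all those of the culture expression tables whose symbol is Mrpl or Mrps followed by a digit, which gave 74 of the 11144 genes listed. By the position of their product they fall into 47 genes of the large subunit and 27 of the small subunit. Mrps30 and Mrps18a carry a small-subunit symbol but encode large-subunit proteins, and were counted with the large subunit. RefSeq lists 78 coding genes by the same rule. Of the other 4, Mrpl57 and Mrpl58 appear in culture under older symbols, and Mrpl15 and Mrpl48, at 8.77 and 12.1 RPKM (reads scaled for length and library) in the tissue table, have no culture value by name. The study followed brown adipogenesis, the conversion of preadipocytes into the fat cells that burn lipid for heat. Of its 83 samples, the 5 used here are messenger RNA libraries, 1 per group. The tissue group is interscapular brown adipose tissue of C57BL/6J mice aged 16 weeks. The 4 culture groups are brown preadipocytes of Pparg-flox/flox mice on a C57BL/6J background, isolated from the interscapular brown fat of newborns and immortalised with a retrovirus carrying SV40 large T antigen. All 4 therefore carry the floxed Pparg alleles and the large T antigen, and the labels give no Cre for them. They were sampled while proliferating on day -3, at confluence on day 0, as immature adipocytes on day 2 and as mature adipocytes on day 7. Differentiation was induced on day 0 with insulin, triiodothyronine, isobutylmethylxanthine, dexamethasone and indomethacin, and insulin and triiodothyronine were continued from day 2.

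Mitochondrial DNA encodes a small set of respiratory chain and ATP synthase subunits, and the mitochondrial ribosome makes those proteins. Its RNAs come from mitochondrial DNA, while its proteins are encoded in the nucleus, translated in the cytosol and imported. Many have a counterpart in the bacterial ribosome, and others are specific to mitochondria. Brown fat is packed with mitochondria whose respiratory chain drives heat production through the uncoupling protein Ucp1, and that chain needs subunits from both translation systems.

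With 1 library per group there is no replicate spread, and no p-value is given for any comparison. Differences are of log2(FPKM + 1), where FPKM scales fragments for transcript length and for the mapped fragments of the library. The rule of size asked for a difference of at least 1 on that scale, called 2-fold here, and was applied to genes that reached 1 FPKM in either library. A gene can reach 2-fold in FPKM itself and still fall short of this rule. All 74 members passed that filter at every step. The read depth of the culture libraries is unknown, since only FPKM values were at hand. The summed FPKM of all genes was 368527 on day -3, 318872 on day 0, 313685 on day 2 and 334914 on day 7. The culture followed its labels in the summed FPKM of 10 adipocyte markers, at 116, 198, 7333 and 7768 on days -3, 0, 2 and 7. Most of the sums of days 2 and 7 came from Fabp4, at 4811 and 4070 FPKM, and Lpl, at 1842 and 1264. On day 7 against day 2, 8 of the 10 were higher and 2, Fabp4 and Lpl, were lower. The summed FPKM of brown fat markers, of which 7 of 10 had a value, was 4.34, 7.99, 29.5 and 176 on days -3, 0, 2 and 7. Cox7a1, a cytochrome oxidase subunit, made up 132 FPKM of the day 7 sum, and Ebf2, a transcription factor of brown fat, was at 3.57, 5.32, 26.2 and 24.5 FPKM. Ucp1 was at 0, 0, 0.0357 and 1.22 FPKM, and Cidea, a lipid droplet protein of brown fat, was listed at 0 until day 2 and at 8.81 FPKM on day 7. In bulk samples, fewer cells of a type and less RNA per cell cannot be told apart.

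Members were expressed in every culture library at a moderate and similar level. Their median was 32.6 FPKM on day -3, 22.9 on day 0, 31.0 on day 2 and 32.1 on day 7, against a median of 12.2, 13.0, 13.2 and 13.4 FPKM over all genes. Their summed level was 2749, 2011, 2649 and 2725 FPKM, which was 0.746%, 0.631%, 0.845% and 0.814% of all listed FPKM. The confluent library of day 0 was thus the lowest in the median, the sum and the share. Of the 74 members, 64 had a mean over the 4 libraries between 10 and 60 FPKM, 5 had a lower and 5 a higher mean.

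The highest means belonged to Mrps16 at 84.8 FPKM, Mrps6 at 84.0, Mrpl13 at 81.9, Mrpl33 at 71.9 and Mrpl52 at 67.2. The first 4 of these have bacterial counterparts, and Mrpl52 is specific to mitochondria. Mrpl13, the counterpart of a bacterial protein that joins the large subunit early, was at 78.1, 69.3, 96.8 and 83.2 FPKM on days -3, 0, 2 and 7. The lowest means were 1.39 FPKM for Mrpl23, 1.64 for Mrps36, 3.42 for Mrps33, 8.30 for Mrpl35 and 8.60 for Mrpl46. Mrpl23, whose bacterial counterpart lies at the exit of the peptide tunnel, was at 0.956, 1.30, 1.42 and 1.89 FPKM. Mrps36, whose product is also known as a subunit of the 2-oxoglutarate dehydrogenase complex, was at 1.16, 1.53, 1.17 and 2.70 FPKM. Both have pseudogene copies in the mouse annotation, as does Mrpl27, so reads of these 3 genes may have been split between copies. A further limit is that 18 members overlap another coding gene in assembly GRCm38.p6, and the sources used here do not say whether counting used strand.

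**Figure D1:**
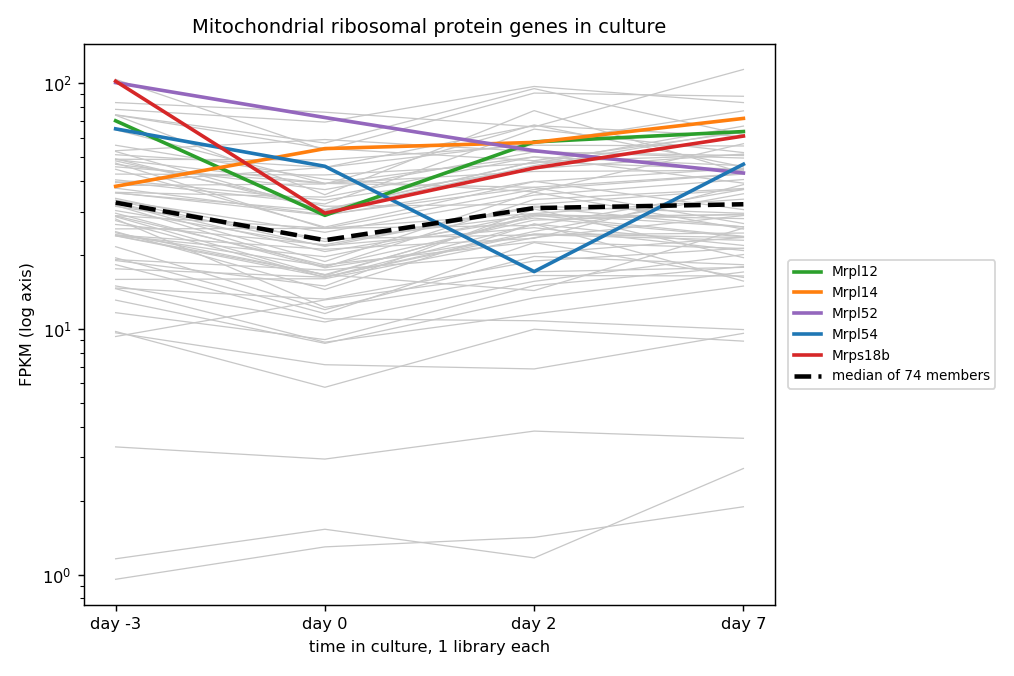
Level of each of the 74 mitochondrial ribosomal protein genes (FPKM, log axis) in the 4 culture libraries, with 5 genes coloured and the median of all members dashed. The median dips to 22.9 FPKM on day 0 and stands at 31.0 and 32.1 FPKM on days 2 and 7, close to the 32.6 FPKM of day -3.

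The members differed less among the 4 libraries than genes in general, which had a lower median level and were not matched to them for level. Their highest value was a median 1.70 times their lowest, against 2.19 times over the 11060 genes with a value above 0 in all 4. Only 12 of the 74 reached 2-fold between highest and lowest, against 55.5% of all genes. These were Mrpl12, Mrpl19, Mrpl20, Mrpl41, Mrpl42, Mrpl51, Mrpl52, Mrpl54, Mrps17, Mrps18b, Mrps35 and Mrps36. Mrpl54 spanned 3.81-fold and Mrps18b 3.44-fold, while the other 10 spanned between 2.02-fold and 2.43-fold. The share of all genes counts those at 0 in some library as past 2-fold.

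Day 0 was the lowest of the 4 libraries for 53 of 74 members, against 17.7% of all genes. Day -3 was the lowest for 8, day 2 for 7 and day 7 for 6, against 35.7%, 17.0% and 29.6% of all genes. The highest library was day -3 for 23 members, day 0 for 1, day 2 for 22 and day 7 for 28, against 28.4%, 21.6%, 17.2% and 32.7% of all genes. The member highest on day 0 was Mrps21, the counterpart of the bacterial small-subunit protein S21, at 53.0, 58.9, 52.6 and 49.5 FPKM on days -3, 0, 2 and 7. A value that was lower on day 0 than on day -3 and higher on day 2 than on day 0 was seen in 56 members, against 25.9% of all genes. When all libraries were brought to the same summed FPKM, 41 members were lowest on day 0, against 11.9% of all genes.

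**Figure D2:**
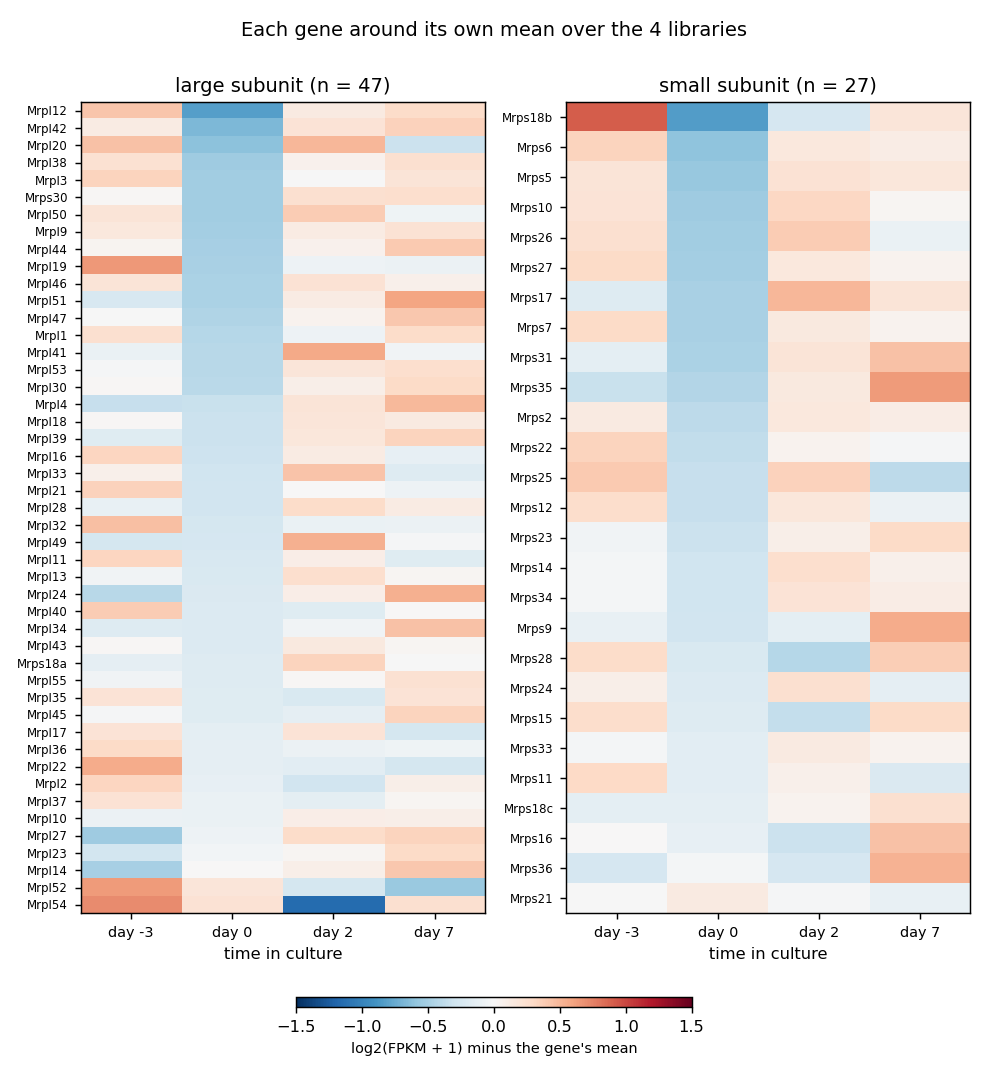
Each gene's log2(FPKM + 1) minus its mean over the 4 libraries, for 47 large-subunit and 27 small-subunit genes sorted by the value on day 0. The day 0 column is blue for most genes of both subunits, since 53 of 74 members were lowest there, and Mrpl52 and Mrpl54 at the foot of the large subunit are lowest on days 7 and 2.

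At confluence, most members were lower than in proliferating cells, by less than 2-fold. On day 0 against day -3, 65 members were lower and 9 higher by any size, with a median difference of -0.42, against a median of 0.06 over all genes with 46.4% of genes lower and 53.6% higher. With the libraries brought to the same summed FPKM, 53 were lower and 21 higher, and the median was -0.22, against 0.25 over all genes. By the 2-fold rule 4 members were lower and 0 higher, against 5.43% lower and 11.3% higher of the 10602 genes compared. At 1.5-fold, 25 were lower and 0 higher, against 14.6% and 23.4%. The 2-fold count is thus near the background, and it is in the smaller differences that the members stand below all genes. The large and small subunits had medians of -0.42 and -0.45, with 41 of 47 and 24 of 27 members lower.

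Of the 4 genes past 2-fold, Mrpl12, Mrpl19 and Mrpl20 have bacterial counterparts in place. Mrps18b, a small-subunit protein related to bacterial S18, was at 102, 29.5, 45.1 and 60.8 FPKM on days -3, 0, 2 and 7. It stood 1.75 lower on the log2 scale on day 0 than on day -3, and remained below its day -3 level on days 2 and 7. Mrpl12, the counterpart of the bacterial L7/L12 stalk protein that contacts translation factors, was at 70.2, 28.9, 57.6 and 63.4 FPKM. Its difference on day 0 was -1.25, and by day 7 it was within 0.14 of day -3. Mrpl19, which in bacteria lies where the subunits meet, was at 28.0, 12.2, 16.5 and 16.4 FPKM, with a difference of -1.13 on day 0. Mrpl20, whose bacterial counterpart is needed to assemble the large subunit, was at 73.9, 35.1, 77.2 and 43.0 FPKM, with a difference of -1.05. Mrpl19 and Mrpl20 did not reach 2-fold when the libraries were brought to the same summed FPKM, at -0.93 and -0.85. Just short of the rule was Mrps6, at 103, 53.3, 91.0 and 88.3 FPKM, with a difference of -0.94. Mrpl19 and Mrps6 are among the members that overlap another coding gene.

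Promoters of the 2 genes with the largest differences on day 0 are shown here. They run from 250 bases before to 50 bases after the transcription start and are from RefSeq on GRCm38.p6, the minus strand of chr17:35916391-35916690 for Mrps18b and the plus strand of chr11:120484387-120484686 for Mrpl12. Capitals mark GCATGCGC, the core of the site of the factor NRF1, CCGGAAG, a site of the ETS factors that include GABP, AAGATGGCG, a site of the factor YY1, and CACGTG, the E-box, each on either strand.
Mrps18b: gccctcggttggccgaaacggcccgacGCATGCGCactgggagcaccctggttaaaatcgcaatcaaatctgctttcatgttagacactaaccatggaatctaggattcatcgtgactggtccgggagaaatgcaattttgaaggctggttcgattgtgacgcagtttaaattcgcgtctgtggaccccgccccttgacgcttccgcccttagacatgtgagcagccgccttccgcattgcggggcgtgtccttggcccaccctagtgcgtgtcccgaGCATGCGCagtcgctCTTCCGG
Mrpl12: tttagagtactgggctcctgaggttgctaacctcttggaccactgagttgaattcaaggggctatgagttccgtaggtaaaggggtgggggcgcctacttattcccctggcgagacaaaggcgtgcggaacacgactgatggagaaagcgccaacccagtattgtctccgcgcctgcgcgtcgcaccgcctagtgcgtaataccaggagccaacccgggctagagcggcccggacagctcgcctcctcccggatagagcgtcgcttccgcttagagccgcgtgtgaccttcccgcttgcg
Mrps18b holds GCATGCGC at both ends of the window and CCGGAAG, read on the other strand, after the start, while Mrpl12 holds none of the 4.

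The members that were higher at confluence were few and the differences small. Mrpl14, a protein of the subunit interface, was at 38.0, 54.1, 57.3 and 71.8 FPKM on days -3, 0, 2 and 7, 0.50 higher on day 0 than on day -3. Mrpl27, whose bacterial counterpart reaches towards the peptidyl transferase centre, was at 9.30, 13.1, 17.0 and 17.8 FPKM, 0.45 higher. Mrpl24, a protein of the peptide tunnel exit in bacteria, was at 39.3, 45.3, 56.8 and 77.0 FPKM, 0.20 higher. Mrps21 and Mrpl49, a protein specific to mitochondria, differed by 0.15 and 0.02. Mrpl14, Mrpl24, Mrpl27, Mrpl4, Mrpl23 and Mrps18c were the 6 members higher at each step from day -3 to day 7, against 13.5% of all genes. Of these, Mrpl14, Mrpl24 and Mrpl27 overlap another coding gene, and Mrpl23 and Mrpl27 have a pseudogene copy.

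**Figure D3:**
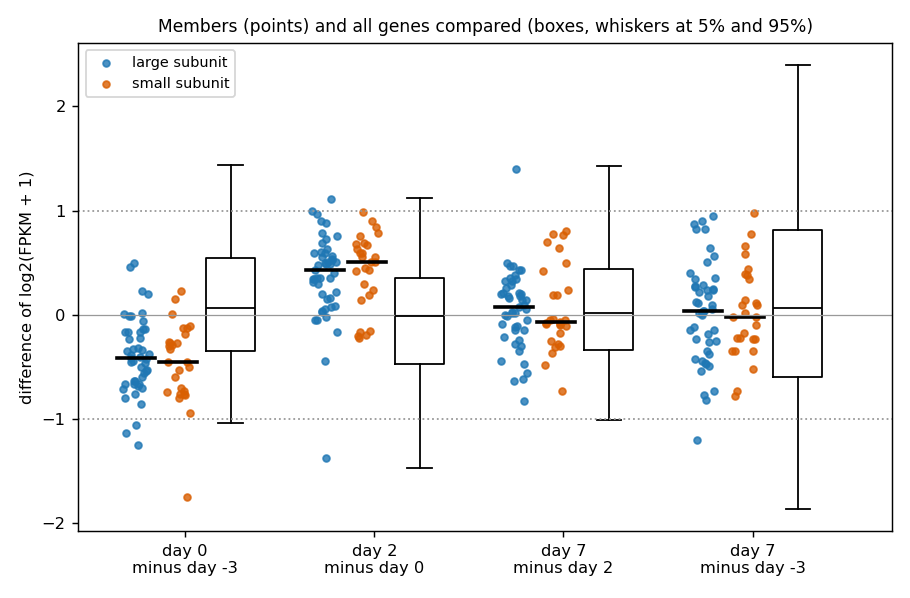
Difference of log2(FPKM + 1) for each member (points, with a bar at the subunit median) beside all genes compared (boxes with the quartiles and median, whiskers at 5% and 95%), with dotted lines at 2-fold. Members lie mostly below 0 on day 0 minus day -3, with a median of -0.42, and mostly above 0 on day 2 minus day 0, with a median of 0.48, and centre near 0 in the other comparisons.

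After induction the members were mostly higher again. On day 2 against day 0, 63 members were higher and 11 lower by any size, with a median difference of 0.48, against -0.01 over all genes and 49.1% of genes higher. By the 2-fold rule 1 member was higher and 1 lower, against 6.18% and 10.7% of 10717 genes. At 1.5-fold, 24 were higher and 1 lower, against 14.6% and 21.0%. This comparison and the one before it share the day 0 library, so the directions are not independent. The day 2 and day -3 libraries, compared without it, differed by a median of 0.03, with 42 members higher and 32 lower by any size. By the 2-fold rule 0 were higher and 2, Mrps18b and Mrpl54, were lower on day 2 than on day -3, against 12.9% and 11.4% of 10522 genes. At 1.5-fold, 4 were higher and 8 lower, against 24.1% and 20.9%, or 45.0% either way.

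Mrpl20 was the member past the rule of size upward on day 2, 1.11 above day 0. Mrpl41 followed at 18.9, 14.9, 30.7 and 19.5 FPKM on days -3, 0, 2 and 7, with a difference of 0.99. Mrps17, the counterpart of bacterial S17, was at 39.7, 32.2, 64.9 and 52.1 FPKM and also 0.99 higher. Mrpl12 was 0.97 higher on day 2 than on day 0, and Mrpl50, at 19.4, 11.5, 22.4 and 16.2 FPKM, was 0.90 higher. Mrpl41 and Mrpl50 are specific to mitochondria. The exceptions were led by Mrpl54, a large-subunit protein specific to mitochondria, at 65.1, 45.8, 17.1 and 46.7 FPKM. It was 1.37 lower on day 2 than on day 0 and 1.40 higher on day 7 than on day 2, so its low value rests on the day 2 library alone. Mrpl52 was 0.44 lower on day 2 than on day 0. Mrps28 and Mrps16 were 0.20 lower and Mrps15 was 0.17 lower.

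Between immature and mature adipocytes the members as a group stood level. On day 7 against day 2, 38 members were higher and 36 lower by any size, with a median difference of 0.02, as over all genes. By the 2-fold rule 1 member, Mrpl54, was higher and 0 were lower, against 9.62% and 5.14% of 10666 genes. At 1.5-fold, 6 were higher and 4 lower, against 19.2% and 13.8%, or 33.0% either way. In the large subunit 28 of 47 were higher, with a median of 0.08, and in the small subunit 10 of 27, with a median of -0.07.

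The small-subunit proteins Mrps28, Mrps16, Mrps9 and Mrps15 had the next largest differences. Mrps28 was at 23.9, 16.6, 14.3 and 25.7 FPKM on days -3, 0, 2 and 7, with day 7 0.80 above day 2. Mrps16 was at 83.2, 76.1, 66.3 and 114 FPKM, 0.77 higher, which made it the most highly expressed member on day 7. Mrps9 was at 24.1, 21.1, 23.3 and 38.6 FPKM, 0.70 higher, with its first 3 values close together. Mrps15 was at 55.8, 40.6, 36.1 and 56.6 FPKM, 0.64 higher. At the other end, Mrpl20 was 0.83 lower on day 7 than on day 2. Mrps25, specific to mitochondria, was at 27.5, 16.2, 26.7 and 15.6 FPKM, 0.73 lower. Mrpl41 was 0.63 lower, Mrpl33, at 74.2, 57.0, 94.9 and 61.5 FPKM, was 0.62 lower, and Mrpl49, at 38.3, 38.8, 67.5 and 45.6 FPKM, was 0.56 lower. Each of these 5 had its highest or second highest value on day 2.

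The promoters of the pairs at both ends of this comparison that RefSeq lists are shown next so that they can be set side by side, with the same marks. Mrps16 is on the minus strand of chr14:20393441-20393740, Mrps9 on the plus strand of chr1:42850983-42851282, Mrpl20 on the plus strand of chr4:155802628-155802927 and Mrps25 on the minus strand of chr6:92183974-92184273.
Mrps16: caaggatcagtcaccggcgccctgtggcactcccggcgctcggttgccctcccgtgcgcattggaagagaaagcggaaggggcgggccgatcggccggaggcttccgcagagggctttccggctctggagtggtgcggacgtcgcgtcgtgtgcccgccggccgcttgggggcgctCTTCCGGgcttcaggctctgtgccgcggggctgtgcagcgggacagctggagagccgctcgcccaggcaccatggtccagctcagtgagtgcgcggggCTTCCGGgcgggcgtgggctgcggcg
Mrps9: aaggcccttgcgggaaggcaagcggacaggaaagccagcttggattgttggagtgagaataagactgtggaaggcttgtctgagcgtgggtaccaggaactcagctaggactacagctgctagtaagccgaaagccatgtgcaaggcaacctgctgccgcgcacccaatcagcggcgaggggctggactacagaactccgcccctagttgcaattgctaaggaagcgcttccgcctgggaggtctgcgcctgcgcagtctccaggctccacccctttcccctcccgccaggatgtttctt
Mrpl20: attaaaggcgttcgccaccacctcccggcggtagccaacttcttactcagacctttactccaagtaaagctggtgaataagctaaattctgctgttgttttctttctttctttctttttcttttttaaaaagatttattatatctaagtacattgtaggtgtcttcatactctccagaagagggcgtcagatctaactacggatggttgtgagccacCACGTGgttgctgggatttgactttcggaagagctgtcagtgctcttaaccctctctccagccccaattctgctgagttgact
Mrps25: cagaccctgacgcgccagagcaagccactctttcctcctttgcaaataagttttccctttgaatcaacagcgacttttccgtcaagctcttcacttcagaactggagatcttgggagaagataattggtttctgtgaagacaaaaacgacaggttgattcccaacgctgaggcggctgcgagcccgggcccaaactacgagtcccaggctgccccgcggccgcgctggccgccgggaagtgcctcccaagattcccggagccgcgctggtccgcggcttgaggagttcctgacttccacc
Mrps16 holds CCGGAAG, read on the other strand, both before and after its start, and 72.7% of its bases are G or C. Mrpl20 holds CACGTG and is 43.3% G or C. Mrps9 and Mrps25 hold none of the 4 motifs, so a marked motif is not shared by either pair.

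Over the whole course the members ended where they began. On day 7 against day -3, 40 members were higher and 34 lower by any size, with a median difference of 0.03, against 0.07 over all genes. By the 2-fold rule 0 were higher and 1 was lower, against 20.3% and 14.7% of 10828 genes, or 35.0% either way. At 1.5-fold, 9 were higher and 6 lower, against 31.8% and 25.4%, or 57.2% either way. The member past the rule was Mrpl52, at 100, 72.4, 53.0 and 43.0 FPKM, lower at every step and 1.20 lower on day 7 than on day -3. Mrpl22, a tunnel protein in bacteria, was at 18.2, 11.0, 10.8 and 9.93 FPKM and 0.82 lower. Mrps25, Mrpl20 and Mrpl19 were 0.78, 0.77 and 0.74 lower. Short of the rule of size upward were Mrps35, at 17.5, 16.2, 24.9 and 35.4 FPKM, 0.97 higher, and Mrpl24, Mrpl14 and Mrpl27, 0.95, 0.90 and 0.87 higher. Mrpl51 was at 35.7, 30.1, 46.1 and 64.1 FPKM, 0.83 higher. Mrps35 and Mrpl51 are specific to mitochondria.

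The 3 Mrps18 paralogs differed among themselves. All are related to bacterial S18. Mrps18c takes its place in the small subunit, Mrps18b lies elsewhere in that subunit, and Mrps18a lies in the large subunit, so Mrps18b and Mrps18a were grouped with the proteins specific to mitochondria. Mrps18a was at 35.9, 34.3, 50.1 and 39.1 FPKM on days -3, 0, 2 and 7, and Mrps18c at 25.5, 25.6, 29.4 and 33.7 FPKM. On day -3 Mrps18b, at 102 FPKM, was far above both, and on day 0, at 29.5 FPKM, it lay between them. The difference of day 0 from day -3 was -1.75 for Mrps18b, -0.06 for Mrps18a and 0.01 for Mrps18c.

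Divided by origin, the 44 members with a counterpart at the same place in the bacterial ribosome and the 30 specific to mitochondria were set side by side, with no test of their difference. Their medians on day 0 against day -3 were -0.43 and -0.37, and on day 2 against day 0 they were 0.38 and 0.58. On day 7 against day -3 they were -0.01 and 0.11. Lower on day 0 than on day -3 by any size were 37 of the 44 and 28 of the 30, against 46.4% of all genes. At 1.5-fold, 15 of the 44 and 10 of the 30 were lower there, against 14.6%. On day 2 against day 0, 9 of the 44 and 15 of the 30 were higher at 1.5-fold, against 14.6% of all genes. Mrps28 and Mrps18b were moved between these groups after values were seen.

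Proteins of the mitochondrial ribosome that carry other symbols were also mostly lower on day 0, with a smaller median difference after it than the members. On day 0 against day -3, 6 of 7 were lower and 1 higher, against 46.4% of all genes lower. On day 2 against day 0, 6 were higher, against 49.1% of all genes, and 1 was lower, by 0.58. The 7 listed genes had medians of -0.35 on day 0 against day -3, 0.17 on day 2 against day 0 and 0.08 on day 7 against day 2. Ptcd3, a small-subunit protein, was at 35.7, 17.1, 37.5 and 26.9 FPKM on days -3, 0, 2 and 7, 1.02 lower on day 0 than on day -3 and 1.09 higher on day 2 than on day 0. Dap3, a small-subunit protein that binds GTP, was at 66.0, 60.7, 70.8 and 74.8 FPKM. Among these genes are Mrp63 and Ict1, the symbols the culture tables use for Mrpl57 and Mrpl58.

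The factors that work with the ribosome were described in the same way. The 11 translation factors had medians of 0.06, 0.37 and 0.21 at the 3 successive steps and of 0.53 on day 7 against day -3, when 2 were higher and 0 lower by the 2-fold rule, a share near the 20.3% of all genes higher. These were Mtif2, an initiation factor, at 11.6, 15.9, 21.4 and 26.0 FPKM, and Taco1, an activator of Cox1 translation, at 6.47, 6.18, 12.7 and 14.8 FPKM. Of 17 mitochondrial aminoacyl-tRNA synthetases, which charge the transfer RNAs, 15 had a value, with a median of 0.35 on day 7 against day -3, when Fars2 was 1.53 higher. At single steps, Ears2 was 1.10 lower on day 0 than on day -3 and Nars2 1.12 higher on day 2 than on day 0.

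Of 21 genes for assembly of the mitochondrial ribosome, 18 had a value, with medians of -0.06, 0.46 and 0.09 at the 3 steps and 0.29 on day 7 against day -3. In that last comparison 4 were higher and 0 lower by the 2-fold rule, again near the 20.3% of all genes, namely Tfb1m, a methyltransferase of the small ribosomal RNA, by 1.44, Mtg1, a GTPase, by 1.27, Mpv17l2 by 1.18 and Mterfd2 by 1.08. Of 12 genes for mitochondrial DNA maintenance and transcription, 11 had a value and none passed 2-fold in these 4 comparisons. Their medians were -0.34 on day 0 against day -3 over 10 genes, and 0.44 on day 2 against day 0 and -0.02 on day 7 against day 2 over 11. The share of all genes past 2-fold in each comparison is the one given for the members.

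Of 10 regulators of mitochondrial biogenesis, 8 had a culture value, and Ppargc1a and Myc had none. On day 0 against day -3, 6 of the 7 compared were lower and 1 higher, with a median of -0.51, against 46.4% of all genes lower. On day 2 against day 0, 6 were higher and 2 lower, with a median of 0.07, against 49.1% higher. On day 7 against day 2, 6 were again higher and 2 lower, with a median of 0.49, against 51.4% higher. Over the whole course single differences ran from -2.33 to 4.49. Ppargc1b, a coactivator of mitochondrial genes, was at 0.924, 0.761, 12.7 and 42.3 FPKM on days -3, 0, 2 and 7, 2.97 higher on day 2 than on day 0 and 1.66 higher on day 7 than on day 2. Esrra, a nuclear receptor that works with it, was at 19.4, 13.3, 24.1 and 45.6 FPKM, and day 7 was 1.19 above day -3. Pprc1, a related coactivator known in growing cells, was at 83.0, 35.2, 35.7 and 15.7 FPKM, 1.21 lower on day 0 than on day -3 and 2.33 lower on day 7 than on day -3. Nrf1 was at 33.3, 21.3, 22.4 and 34.6 FPKM. The GABP subunit Gabpa was at 38.2, 30.7, 28.2 and 45.7 FPKM, its partner Gabpb1 at 19.9, 13.7, 15.8 and 11.6, and Gabpb2 at 22.1, 23.9, 19.8 and 26.2. Yy1 was at 45.3, 40.4, 42.5 and 48.6 FPKM. Nrf1, Gabpa, Gabpb1, Gabpb2 and Yy1 stayed within 2-fold in all 4 comparisons.

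Set beside the respiratory chain, whose mitochondrially encoded subunits the ribosome makes, and beside the ribosome of the cytosol, the members lay between over the whole course. On day 7 against day -3 the 74 members had a median of 0.03 and 0 higher by the 2-fold rule, while the 79 nuclear genes of the respiratory chain and ATP synthase had a median of 1.21 and 51 higher. The 75 cytosolic ribosomal protein genes had a median of -0.70, with 21 lower and 1 higher. Over all genes, 20.3% were higher and 14.7% lower by that rule. On day 0 against day -3 the medians were -0.42 for the members, -0.09 for the respiratory chain and -0.55 for the cytosolic ribosome. On day 2 against day 0 they were 0.48, 0.46 and 0.17, so the members' median was the highest of the 3 there. The members and the respiratory chain parted on day 7 against day 2, at medians of 0.02 and 0.81. By the 2-fold rule 22 respiratory chain genes were higher there, against 9.62% of all genes. Median levels of the respiratory chain were 60.2, 59.6, 87.7 and 149 FPKM on days -3, 0, 2 and 7. These differences between groups were not tested, and cytosolic ribosomal protein genes have many pseudogene copies that can take their reads.

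**Figure D4:**
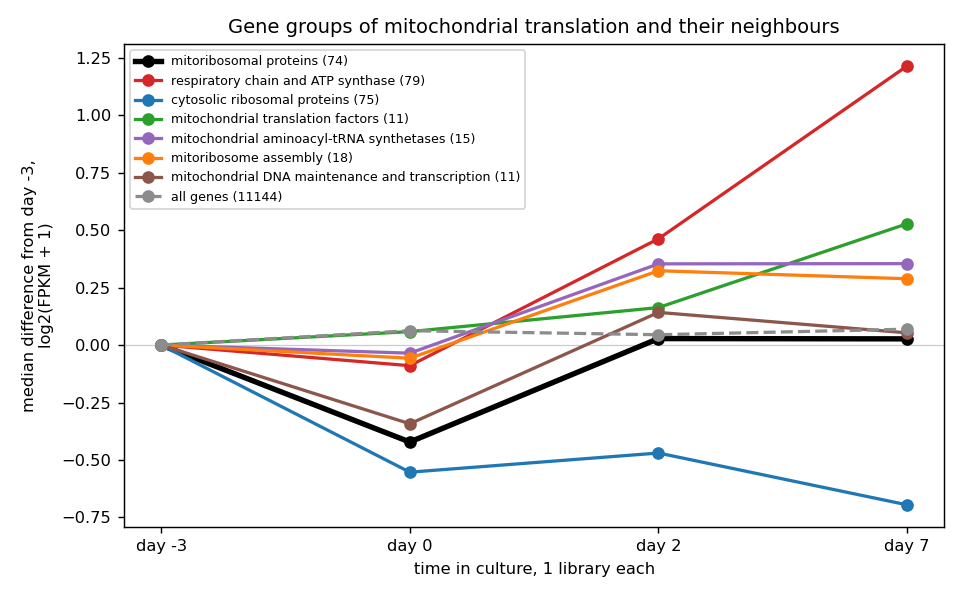
Median difference of log2(FPKM + 1) from day -3 for 8 groups of genes, over the genes compared, on days 0, 2 and 7 (numbers in brackets are genes with a value). The mitochondrial ribosomal proteins reach 0.03 on day 7, between the respiratory chain at 1.21 and the cytosolic ribosomal proteins at -0.70.

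Whole brown adipose tissue carried the members higher in its ranking than mature cultured adipocytes did. The tissue was measured by RefSeq transcript in RPKM, the same kind of scaling applied to reads, so the libraries were compared by the rank percentile of each gene among the 10464 genes ranked in both, with the highest transcript taken for the 5 members that have several. All 74 members had a tissue value, with a median of 23.6 RPKM and a range of 0.321 to 119. The median member stood at a rank percentile of 87.5 in tissue and 75.4 on day 7, and the median of the differences was 8.01 points, against 0.14 over all genes. It was 5.33 points with the transcripts of a gene summed and 12.2 among genes at 10 or more in either library. By any size 59 were higher and 15 lower in tissue, against 50.5% and 49.5% of all genes. At 20 points, 16 were higher and 1 lower, against 14.5% and 14.4% of all genes. At 10 points, 34 were higher and 2 lower, against 27.4% and 26.7%. The large subunit had 11 higher and 0 lower, with a median difference of 6.85 points, and the small subunit 5 higher and 1 lower, with 10.5 points. Members specific to mitochondria had a median difference of 12.7 points and those with a bacterial counterpart 7.41.

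Members with the highest tissue levels were Mrpl34 at 119 RPKM, Mrpl12 at 85.1, Mrpl30 at 79.5, Mrpl42 at 77.5 and Mrps16 at 62.4. The 5 largest rank differences upward followed, and a member that ranks high in culture has little room to rank higher in tissue. Mrpl46, a protein specific to mitochondria, was at 12.9 RPKM in tissue and 8.91 FPKM on day 7, with rank percentiles of 76.7 and 34.1, so 42.6 points higher in tissue. Mrpl22 was at 14.1 RPKM in tissue and 9.93 FPKM on day 7, 41.3 points higher, and Mrpl50 at 36.4 RPKM and 16.2 FPKM, 38.7 points higher. Mrpl35 was 38.3 and Mrps36 33.2 points higher in tissue. The member lower by the rule was again Mrps18b, at 6.21 RPKM in tissue and 60.8 FPKM on day 7, with rank percentiles of 56.3 and 89.4, so 33.1 points lower in tissue. Next were Mrpl17 at -13.2, Mrpl19 at -9.37, Mrpl51 at -5.71 and Mrps17 at -4.83 points.

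**Figure D5:**
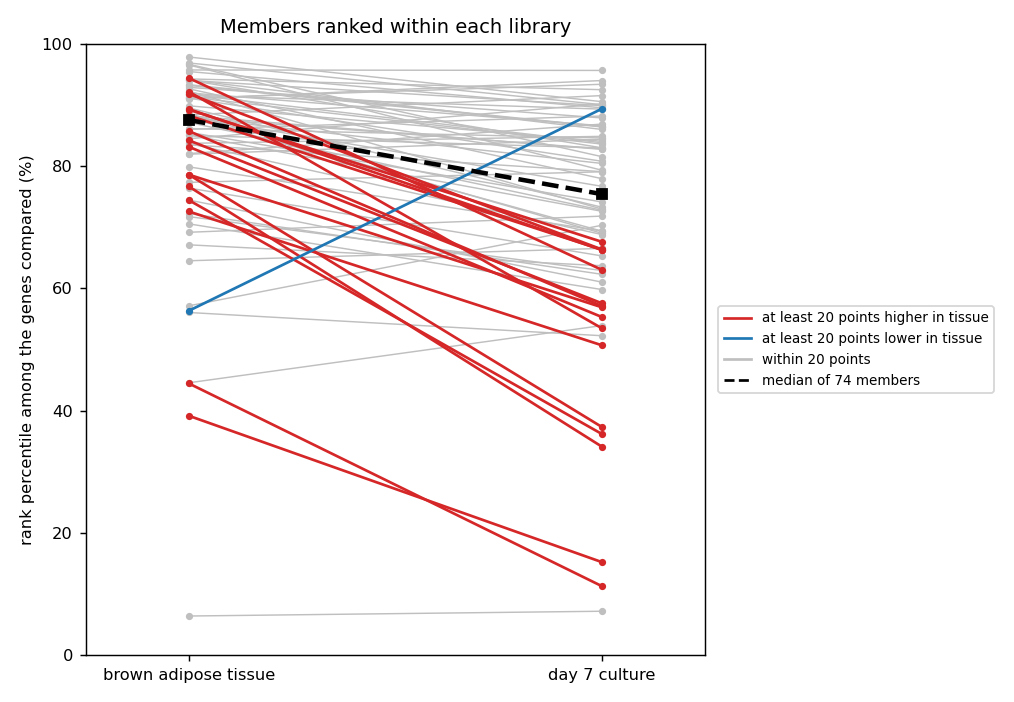
Rank percentile of each member among the genes compared, in brown adipose tissue (left) and day 7 culture (right), with the median of the 74 members dashed. The dashed median stands at 87.5 in tissue and 75.4 in culture, 16 red lines are at least 20 points higher in tissue and 1 blue line, Mrps18b, is at least 20 points lower.

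By the same ranking the respiratory chain stood at a median percentile of 98.6 in tissue and 97.3 on day 7. Its median difference was 1.10 points, with 65 higher and 14 lower by any size, and genes ranked this high have little room above. Median differences were 18.2 points for the translation factors, 16.7 for ribosome assembly and 10.8 for the 7 ribosomal proteins under other symbols. They were 6.84 for the synthetases, 6.44 for mitochondrial DNA maintenance and transcription and -7.80 for the regulators. The cytosolic ribosomal proteins stood at 50.1 in tissue and 68.9 on day 7, with a median difference of -10.7 points. At 20 points 1 of them was higher and 23 were lower, against 14.5% and 14.4% of all genes. The tissue holds cells that the culture does not. Summed RPKM in tissue was 1714 over 10 skeletal muscle markers, 188 over 8 endothelial markers, 208 over 4 red blood cell markers and 28.1 over 6 macrophage markers, beside 8649 over 10 adipocyte markers and 3526 over 10 brown fat markers. Only 2 of the 10 muscle markers had a culture value, summing to 2.13 FPKM on day 7. Ucp1 was at 1015 RPKM in tissue and 1.22 FPKM on day 7. The part of these cells in the members' ranks was not tested, and tissue and culture also differ in age, in genotype and in how the values were made, which cannot be told apart here. In the tissue, 3 reads on a transcript of 1 kb, taken as the limit of detection, are worth 0.562 RPKM. Mrpl23 at 0.321 RPKM lies below that limit, and the limit covers counting error only.

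Of the 74 members, 66 had a promoter in the RefSeq table. The letters CCGGAAG were found in 23 of the 66, or 34.8%, against 18.2% of 8024 culture genes with a promoter and 9.12% of 27025 genes in all. AAGATGGCG was in 8, or 12.1%, against 3.18% and 1.49%, mostly downstream of the start, as in Mrpl35, Mrpl37, Mrpl42, Mrps18a, Mrps24 and Mrps27. GCATGCGC was in 8, or 12.1%, against 5.77% and 2.80%, and the longer palindromic form of that NRF1 site, which contains it, was in 3, or 4.55%, against 2.24% and 0.98%. CACGTG was in 5, or 7.58%, against 10.4% and 7.24%. CCAAT was in 27, or 40.9%, against 39.5% and 37.9%, and TATAAA in 4, or 6.06%, against 6.49% and 14.2%. TCAAGGTCA, the site of the estrogen-related receptors, was in 0 of 66, against 0.25% and 0.41%. Both strands were searched in every case. The median share of G and C was 58.0%, against 61.3% in culture genes and 52.7% in all genes. Of 63 respiratory chain and ATP synthase promoters, 23.8% held CCGGAAG, 7.94% AAGATGGCG, 14.3% GCATGCGC and 6.35% its longer form. Of 55 cytosolic ribosomal protein promoters, the shares in the same order were 40.0%, 3.64%, 3.64% and 1.82%. A match of letters is a description of the window and not a bound site, and these shares were not tested.

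Many members start close to a gene on the other strand. A start of another gene in the opposite direction lay within 1000 bases for 25 of 66 members, or 37.9%, against 18.2% of the 8024 culture genes. Mrpl46 and Mrps11 form such a pair with each other, with starts 42 bases apart. Mrpl46 was at 9.75, 5.78, 9.96 and 8.91 FPKM on days -3, 0, 2 and 7, and Mrps11 at 30.3, 21.8, 25.8 and 20.8 FPKM. Both were lower on day 0 than on day -3 and higher on day 2 than on day 0, as were 56 of all 74 members. Mrpl46 was lowest on day 0 and Mrps11 on day 7. The Mrps11 promoter, on the plus strand of chr7:78782881-78783180, is shown because its window overlaps that of its neighbour Mrpl46. Capitals mark AAGATGGCG read on the other strand, and the Mrpl46 window itself holds no match to it.
Mrps11: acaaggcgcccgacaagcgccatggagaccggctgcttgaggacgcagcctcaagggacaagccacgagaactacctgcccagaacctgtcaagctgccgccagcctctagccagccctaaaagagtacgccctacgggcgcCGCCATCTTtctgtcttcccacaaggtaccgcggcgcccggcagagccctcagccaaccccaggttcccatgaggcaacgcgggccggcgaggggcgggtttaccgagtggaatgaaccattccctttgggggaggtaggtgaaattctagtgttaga
Of the neighbours of the other members, a few are named here for a known mitochondrial role, chosen after the list was seen, and most are not. Mrps12 starts 147 bases from Sars2, the mitochondrial seryl-tRNA synthetase, Mrpl43 starts 116 bases from the gene of the mitochondrial DNA helicase Twinkle, and Mrps27 starts 108 bases from Ptcd2. Mrpl47 starts 308 bases from Ndufb5, a subunit of respiratory complex I, which was at 55.5, 56.9, 77.3 and 141 FPKM on days -3, 0, 2 and 7, while Mrpl47 itself was at 14.9, 10.7, 15.6 and 20.04 FPKM. The neighbour of Mrps18b, 756 bases away, is Ppp1r10, a regulator of protein phosphatase, which was at 22.3, 19.8, 20.4 and 19.5 FPKM and so did not share the low day 0 value of Mrps18b.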

How the data were processed

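Of the 83 samples, 5 RNA libraries were used, grouped by their titles with 1 library per group; ChIP-seq, FAIRE-seq and input samples were not analysed here. The authors deposited the culture values as FPKM by gene symbol and the tissue values as RPKM by RefSeq transcript. Per the labels' protocols, messenger RNA was purified on beads from total RNA. TopHat2 2.0.10, Cufflinks 1.0.3, CASAVA 1.8.2 and SICER are listed, with build mm9 and without roles, per the submitters' processing notes; the counting annotation and strand setting are not given. Each listed culture gene reaches at least 1.00 FPKM in some library.

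Values were used as deposited. Differences are of log2(FPKM + 1), a scale that understates changes of low genes, counted at 2-fold where the larger value was at least 1 FPKM. With 1 library per group these are rules of size, not tests, and no replicate check is possible. Of 29082 tissue transcripts, 97.8% matched 1 symbol, and tissue ranks were compared at 20 points. Low culture values shared a common ratio in at most 6.02% of genes, so depth was not recovered; all 30 chemosensory receptor transcripts of the tissue were whole reads within 0.01 read. Python 3.11.15, pandas 2.3.3, numpy 2.4.6 and matplotlib 3.10.9 were used, and the rules of size and rank were tested on simulated data.

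The members and lists were chosen with earlier results of these data known. Members named are the 5 with the largest difference each way per comparison among those reaching 10 FPKM, the 5 highest and 5 lowest means, the 5 largest rank differences each way, the Mrps18 paralogs and those past 2-fold; of other lists, genes past 2-fold and the regulators. For the respiratory chain and the cytosolic ribosome only counts, medians and levels are given. A gene past 2-fold in another list is not reported here. Mrps28 and Mrps18b were moved between the groups by origin, to follow structural nomenclature, after values were seen. Dap3, the neighbours of divergent starts and the promoters of Mrps18b, Mrpl12 and Mrps11 were chosen after their values were seen, as were genes named for tissue level and for the span over the 4 libraries. Promoters are from RefSeq on GRCm38.p6, taking the first listed start; no coordinate was carried between builds. The alternatives were other pseudocounts, filters, scalings and thresholds, tissue transcript sums and, added after seeing the data, leaving out members with copies or overlaps.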

Additional observations from a re-analysis of the deposited data

How the results depend on the processing

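Of 251 values computed over the alternatives, 224 stayed within the limits set for a change, 23 moved and 4 no longer reached 2-fold. Direction was checked only for single members past 2-fold, and 0 of those reversed. The median on day 7 against day 2, 0.02 as reported, was -0.08 at the same summed FPKM, within the limit. Some of the 224 could not change. The 1.5-fold rule leaves any-size counts and medians as they are, and all members passed the 1 FPKM filter that 1 alternative left out. Few members are near 2-fold, so counts of them depend on the rule. On day 0 against day -3, 4 members were lower as reported, 2 with a pseudocount of 5, 2 at the same summed FPKM and 25 at 1.5-fold. Same summed FPKM moved the median of all genes to 0.25 and that of the members to -0.22, with 21 members higher by any size. Without the 20 members that have copies or overlaps, 3 of 54 were higher by any size, and 42 were lowest on day 0. Mrpl19 and Mrpl20 stood at -0.94 and -0.98 with a pseudocount of 5, and at -0.93 and -0.85 at the same summed FPKM. On day 2 against day 0, 1 member was higher as reported, 3 with a pseudocount of 0.1, 3 with median-ratio factors, 3 at the same summed FPKM and 24 at 1.5-fold. On day 7 against day 2, 2 were higher with a pseudocount of 0.1, and 6 higher and 4 lower at 1.5-fold. On day 7 against day -3, 2 were higher with a pseudocount of 0.1, 3 at the same summed FPKM and 9 at 1.5-fold, with 6 lower at 1.5-fold; the members' median was 0.16 at the same summed FPKM, against 0.20 over all genes. With median-ratio factors, 56 members were lowest on day 0, against 19.7% of all genes. For tissue against day 7, the median rank difference was 5.33 points with transcripts summed, 12.2 among genes at 10 or more in either library and 10.6 without copies and overlaps, and a call at 10 points gave 34 higher and 2 lower, against 27.4% and 26.7% of all genes. No library could be left out and no paired analysis was possible because each group holds 1 library. Culture depth is unknown, so counting error cannot be given for low members such as Mrpl23 and Mrps36.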
